A study of Mus musculus with 6 samples.

Results

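White fat, adipokine and lipolysis genes were followed in RNA from mouse aortic arches. The group was defined by name, as 9 genes of adipocyte hormones, lipid droplets and fat breakdown, and all 9 were found among the 14298 genes of the table. PolyA RNA had been sequenced from 3 knockout and 3 control libraries, and the series text speaks of 3 mice per genotype. Knockout mice were ApoE-/-; RBPJflox/flox;Cdh5-CreERT, and control mice were ApoE-/-;RBPJflox/flox without the recombinase. Every animal was an adult C57/BL6 mouse that lacked apolipoprotein E, carried the floxed Rbpj alleles, received tamoxifen for 1 week at 8 weeks of age and then ate a high-fat diet for 6 weeks. The Cdh5 promoter drives the recombinase in endothelial cells, so Rbpj, which encodes the transcription factor that Notch acts through, was targeted there and not in fat cells. The groups differ in the presence of the recombinase as well as in the deletion.

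The arch is wrapped in perivascular fat, and a dissected arch carries some of it. White adipocytes store triglyceride in 1 large droplet coated with perilipin, release fatty acids through a chain of lipases when catecholamines call for them, and secrete hormones such as adiponectin and leptin. Fat around the thoracic aorta of mice also holds brown adipocytes, which burn fatty acids for heat. The nuclear receptor PPAR gamma and the C/EBP factors drive most of the genes of both kinds of fat cell.

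Each library is named by the number in its column: S595, S598 and S599 are knockout and S591, S592 and S594 are control. The libraries held between 5904504 and 10072495 reads over the listed genes. Levels are normalised CPM, that is reads scaled to counts per 1e6 of an adjusted library size. Smooth muscle transcripts, the defining ones of the arterial wall, were abundant (the 8 markers summed to between 20897 and 29096 in knockout and between 11969 and 20839 in control libraries). Rbpj itself was at 169, 197 and 212 in the knockout arches, against 174, 191 and 200.4 in the control arches, and whole-tissue RNA does not check a deletion confined to endothelium. Libraries S598 and S599 carried transcripts of thymocytes (the 8 measured markers summed to 179 and 81.8, against 23.6 in S595 and between 27.6 and 36.4 in the controls). Airway epithelium markers (5 measured) stood higher in every knockout library, with sums between 69.8 and 95.03 in knockout and between 5.24 and 17.7 in control libraries, and 2 of them, Scgb1a1 and Bpifa1, were among the 3 genes that passed the adjusted test in the whole table (adjusted p = 0.0317 for both by limma).

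The start regions of 3 of the genes are shown because Plin1 and Adipoq were both lowest in control S592 alone, whereas Lep was lowest in S592 and S594 alike. Each line is the RefSeq window from 250 bases before to 50 after the start of the gene (build GRCm38.p6; chr16:23146286-23146585, plus strand, for Adipoq; chr7:79732727-79733026, minus strand, for Plin1; chr6:29059971-29060270, plus strand, for Lep). Capitals mark the letters TGGGAA, the core that RBPJ is known to recognise, or TTNNGNAA, a C/EBP consensus, read on both strands.
Adipoq: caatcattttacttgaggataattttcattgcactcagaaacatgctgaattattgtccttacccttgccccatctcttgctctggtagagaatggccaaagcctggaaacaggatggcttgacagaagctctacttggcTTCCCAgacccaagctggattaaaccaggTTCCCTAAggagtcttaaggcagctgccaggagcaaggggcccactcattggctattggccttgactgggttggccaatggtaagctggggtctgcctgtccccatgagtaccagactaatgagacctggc
Plin1: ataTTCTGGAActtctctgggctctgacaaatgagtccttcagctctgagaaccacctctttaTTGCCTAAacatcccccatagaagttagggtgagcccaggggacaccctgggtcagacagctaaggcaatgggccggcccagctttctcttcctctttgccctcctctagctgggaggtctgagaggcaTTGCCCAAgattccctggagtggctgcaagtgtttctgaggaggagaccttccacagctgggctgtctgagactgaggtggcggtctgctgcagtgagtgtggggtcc
Lep: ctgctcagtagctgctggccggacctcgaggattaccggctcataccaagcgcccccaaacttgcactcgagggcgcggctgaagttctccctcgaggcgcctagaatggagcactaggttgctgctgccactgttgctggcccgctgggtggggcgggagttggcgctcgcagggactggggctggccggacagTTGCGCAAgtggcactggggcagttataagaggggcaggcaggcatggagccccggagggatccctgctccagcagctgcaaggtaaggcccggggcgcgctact
The Adipoq window held 1 match to the RBPJ core at base 141 (as its reverse, TTCCCA) and 1 to the C/EBP letters at base 170, counted from the first base shown. The Plin1 window held 3 C/EBP matches, at bases 4, 64 and 193, and the Lep window 1, at base 196, with none to the RBPJ core in either. Over all members, 13 windows were found for the 9 genes, 3 with the RBPJ core and 6 with the C/EBP letters. Among all 32851 windows of the same length, 25.6% held the RBPJ core and 40.7% the C/EBP letters, the 2 motifs being searched separately. A match describes letters and shows no binding.

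The comparison asked whether fat transcripts differed between knockout and control arches. None of the 9 members passed the test across all genes (limma with Benjamini-Hochberg adjustment, adjusted p from 0.184 to 0.990), where 0.0210% of all genes did. By edgeR 0 of the 9 and 0 of all genes were called. DESeq2 called 0 of the 9, where it called 6.51% of all genes with an adjusted p. Knockout and control values overlapped for all 9, while 25.5% of all genes had groups that did not overlap. Lep stood furthest from its control level, and 8 members had log2 fold changes between −0.61 and 0.02. The median over the members was −0.10, against −0.02 over all genes. The 95% intervals were wide. Those of the 8 members included 0 and left changes in either direction open up to their limits. The interval of Lep ran from 0.37 to 3.91 on the log2 scale, without adjustment for the number of genes.

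Among the adipokines, Adipoq encodes adiponectin, the abundant insulin-sensitising hormone that adipocytes alone secrete in quantity. Adipoq (ENSMUSG00000022878) had 100.1 CPM in S595, 84.2 CPM in S598 and 87.2 CPM in S599 of the knockouts, against 155 CPM in S591, 47.3 CPM in S592 and 124 CPM in S594 of the controls. The 3 knockout libraries lay close together and between the control values, of which S591 was highest and S592 lowest. The mean was 90.5 ± 8.41 in the knockout and 109 ± 55.5 in the control arches (SD, n = 3 each), with a log2 fold change of −0.10 (standard error 0.39, adjusted p = 0.908 by limma) and a 95% interval from 0.497-fold to 1.74-fold.

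Lep encodes leptin, the hormone that signals the size of fat stores to the brain and that white rather than brown adipocytes make. Lep (ENSMUSG00000059201) had 8.90 CPM in S595, 18.9 CPM in S598 and 24.8 CPM in S599 of the knockouts, against 13.4 CPM in S591, 1.14 CPM in S592 and 0.929 CPM in S594 of the controls. Controls S592 and S594 were far below all the others, and the groups overlapped because S591 exceeded S595. These levels rest on 58, 196 and 157 reads in the knockout libraries and on 75, 8 and 7 in the controls. The 95% Poisson interval, which covers counting error only, ran from 6.70 to 11.4 CPM in S595, the lowest knockout library, and from 0.463 to 2.11 CPM in S592. Counting error therefore leaves S592 and S594 apart from the other 4 libraries. The mean was 17.5 ± 8.03 in the knockout and 5.16 ± 7.15 in the control arches (SD, n = 3 each). The log2 fold change was 2.14 on the log2(value + 1) scale (standard error 0.76, 95% interval 0.37 to 3.91, unadjusted p = 0.0239, adjusted p = 0.184 by limma), which understates changes of low genes. Lep was the 1 member of 9 with an unadjusted p under 0.05, on the higher side, where 8.04% of all genes were, with 20.0% in either direction. Control S591 was the only control within the range of the knockouts, so leaving it out was bound to raise the change. Without S591 the adjusted p by limma was 0.0283 with a log2 fold change of 3.08, which is no separate support for a rise. In that fit 4.69% of all genes passed. With array weights the adjusted p by limma was 0.0457 with a change of 2.67, where 7.07% of all genes passed. The other alternatives that kept more than 1 library in each group gave adjusted p between 0.1325 and 0.484. Without S598 and S599, the libraries with thymocyte transcripts, the log2 fold change was 1.34. The airway markers were higher in every knockout library, with sums of 95.03 in S595, 92.8 in S598 and 69.8 in S599. The fit without S598 and S599 therefore keeps a library with airway transcripts. The part of thymocyte or airway tissue in the values of Lep was not tested.

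Retn encodes resistin, which adipocytes secrete in mice. Retn (ENSMUSG00000012705) had 15.4 CPM in S595, 7.18 CPM in S598 and 3.38 CPM in S599 of the knockouts, against 10.04 CPM in S591, 3.69 CPM in S592 and 12.2 CPM in S594 of the controls. Knockout S595 was the highest and knockout S599 the lowest of the 6, and the group means were near equal at 8.67 ± 6.17 in the knockout and 8.64 ± 4.42 in the control arches (log2 fold change −0.07, adjusted p = 0.954 by limma). Between 21 and 101 reads lay behind a value.

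Cfd encodes adipsin, complement factor D, a protease of the alternative complement pathway that fat cells secrete. Cfd (ENSMUSG00000061780) had 260.0 CPM in S595, 101 CPM in S598 and 80.0 CPM in S599 of the knockouts, against 184 CPM in S591, 126 CPM in S592 and 326 CPM in S594 of the controls. Knockouts S598 and S599 were below every control, and S595 was above all but S594. The mean was 147 ± 98.4 in the knockout and 212 ± 103 in the control arches. The log2 fold change was −0.61 (standard error 0.48, adjusted p = 0.520 by limma), with a 95% interval from 0.303-fold to 1.42-fold. Against the controls, S595 alone gave a log2 fold change of 0.40, so the direction rests on S598 and S599, the libraries with thymocyte transcripts, whose part in the result was not tested. The log2 fold change of Cfd was −1.12 without knockout S595 and −0.25 without control S594.

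**Figure D1:**
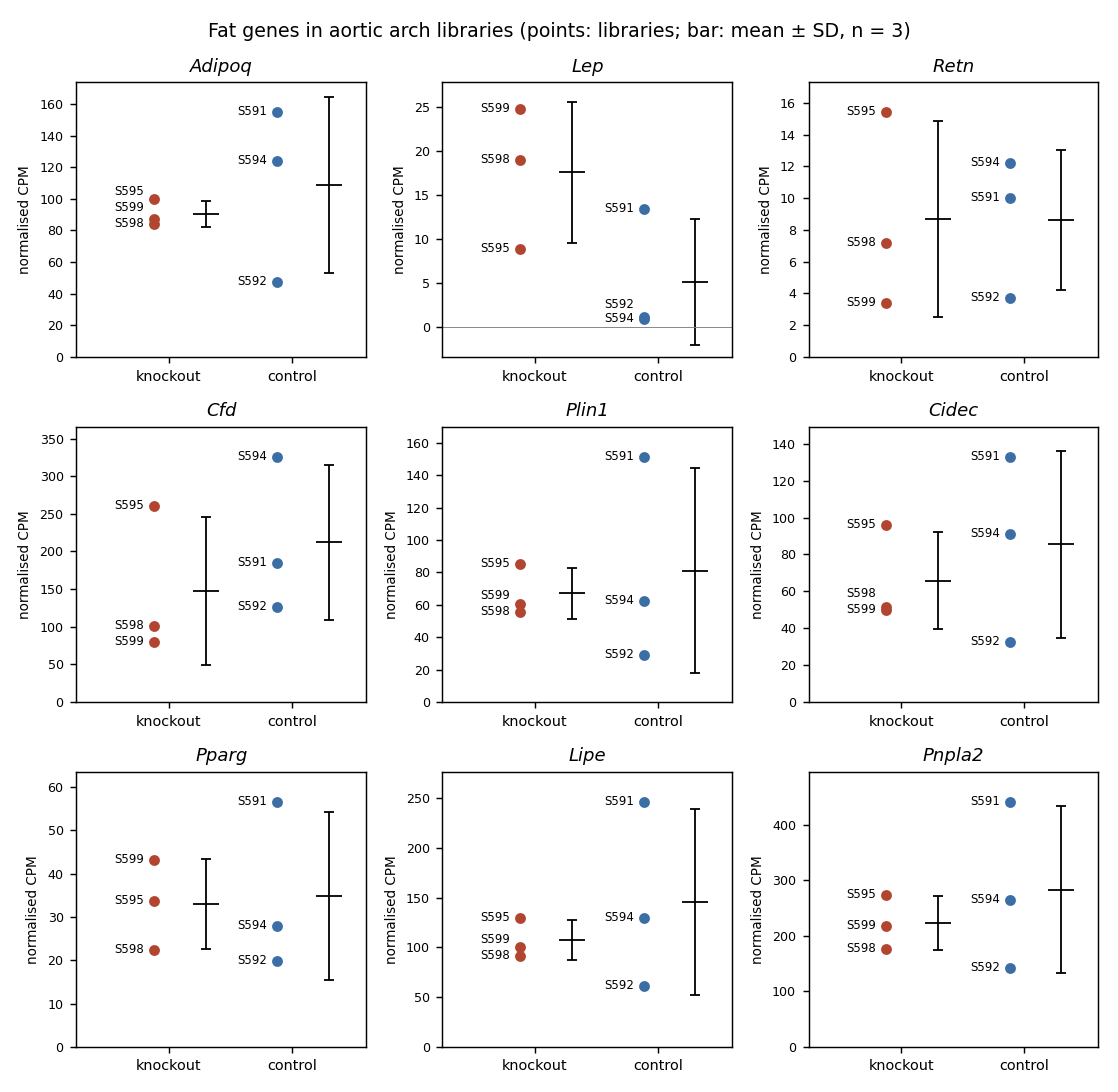
Normalised CPM (vertical axes, linear) of the 9 members in each library, with knockout libraries left and control libraries right in every panel; points are libraries and bars are the mean ± SD of 3. Every panel shows overlapping groups, and control S591 is highest and control S592 lowest for Adipoq, Plin1, Cidec, Pparg, Lipe and Pnpla2, while Lep is near 1 in S592 and S594 only.

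The lipid droplet genes, like Adipoq, were highest in control S591 and lowest in control S592. Plin1 encodes perilipin 1, the coat protein that shields the droplet from lipases until it is phosphorylated. Plin1 (ENSMUSG00000030546) had 85.0 CPM in S595, 55.6 CPM in S598 and 60.5 CPM in S599 of the knockouts, against 151 CPM in S591, 28.9 CPM in S592 and 62.6 CPM in S594 of the controls. The knockout values lay between the lowest and the highest control, and controls differed among themselves by 5.24-fold, against 1.53-fold among knockouts. Cidec encodes the protein that fuses small droplets into the single large one of white adipocytes. Cidec (ENSMUSG00000030278) had 96.1 CPM in S595, 51.3 CPM in S598 and 49.9 CPM in S599 of the knockouts, against 133 CPM in S591, 32.3 CPM in S592 and 91.1 CPM in S594 of the controls. Here too S591 and S592 bracketed the other libraries. The log2 fold changes were 0.01 for Plin1 (95% interval 0.439-fold to 2.33-fold, adjusted p = 0.990 by limma) and −0.22 for Cidec (0.386-fold to 1.91-fold, adjusted p = 0.839).

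Pparg encodes PPAR gamma, the nuclear receptor that fat cells need to form and that macrophages and endothelium carry as well. Pparg (ENSMUSG00000000440) had 33.6 CPM in S595, 22.4 CPM in S598 and 43.2 CPM in S599 of the knockouts, against 56.6 CPM in S591, 19.8 CPM in S592 and 27.9 CPM in S594 of the controls. The groups covered much the same range, with means of 33.0 ± 10.4 in the knockout and 34.8 ± 19.3 in the control arches and a log2 fold change of 0.02 (standard error 0.38, adjusted p = 0.987 by limma). Knockout S599, a library near the middle for Adipoq, was second to S591 here.

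The lipases act in sequence. Pnpla2 encodes adipose triglyceride lipase, which removes the first fatty acid, and Lipe encodes hormone-sensitive lipase, which acts on the diglyceride that remains. Pnpla2 (ENSMUSG00000025509) had 274 CPM in S595, 177 CPM in S598 and 217 CPM in S599 of the knockouts, against 442 CPM in S591, 143 CPM in S592 and 264 CPM in S594 of the controls. Lipe (ENSMUSG00000003123) had 130 CPM in S595, 91.2 CPM in S598 and 100.3 CPM in S599 of the knockouts, against 247 CPM in S591, 61.5 CPM in S592 and 129 CPM in S594 of the controls. Both put S591 highest and S592 lowest, with the knockout libraries in between. The mean of Pnpla2 was 223 ± 48.6 in the knockout and 283 ± 150.5 in the control arches (log2 fold change −0.22, 95% interval 0.469-fold to 1.57-fold, adjusted p = 0.784 by limma). The mean of Lipe was 107 ± 20.1 in the knockout and 146 ± 93.6 in the control arches (log2 fold change −0.24, 95% interval 0.418-fold to 1.71-fold, adjusted p = 0.796 by limma).

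Levels of different genes were set side by side only per kilobase of merged exon (GENCODE M21 lengths, another annotation than that of the counts). On that scale Cfd had the highest median level over the 6 libraries, 168 CPM per kilobase, followed by Pnpla2 at 79.7, Adipoq at 67.8 and Cidec at 38.4. Lipe at 19.5, Plin1 at 13.2, Pparg at 10.4, Retn at 5.45 and Lep at 3.33 CPM per kilobase came after them. The ranges over libraries of every pair of neighbours in that order overlapped.

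Control libraries differed among themselves more than knockout libraries did for most members. On the log2 scale the SD of the controls exceeded that of the knockouts for 7 of 9 members (all but Retn and Cfd), against 52.7% of all genes. The median SD over the members was 0.90 in the controls and 0.46 in the knockouts, against 0.19 and 0.18 over all genes. Control S591 was the highest of the 6 libraries for 6 members, as it was for 17.3% of all genes, and control S592 was the lowest for the same 6, as it was for 13.6% of all genes. In bulk tissue, fewer fat cells and less RNA per fat cell cannot be told apart. Summed over the members, the level was 1002 for knockout S595, 609 for S598 and 666 for S599, against 1392 for control S591, 463 for S592 and 1038 for S594.

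Likeness to Adipoq over the libraries was then described. The distance of each gene from Adipoq was measured as the root mean square difference of log2 levels, each centred on its own mean over the 6 libraries. Pnpla2 and Lipe were at 0.20, Cidec at 0.26, Plin1 at 0.31 and Pparg at 0.37 log2 units, against a median of 0.57 over the 11714 non-members with a mean of at least 5 CPM. Retn was at 0.53, Cfd at 0.64 and Lep at 1.43, and 11657 of those genes were at a smaller distance than Lep. The distance grows with the size of a gene's own variation, so a nearly flat gene can score below one that varies much. It therefore does not rank Retn, Cfd or Lep by whether they rise and fall with Adipoq. The 5 non-members closest to Adipoq were Car3 (0.14), the carbonic anhydrase abundant in fat, Gys1 (0.18), a glycogen synthase gene, the fatty acid carrier gene Fabp4 (0.19), Arxes2 (0.19), a gene of adipocyte differentiation, and the adenosine receptor gene Adora1 (0.19), whose receptor restrains lipolysis. These are descriptions over 6 libraries of 2 genotypes.

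**Figure D2:**
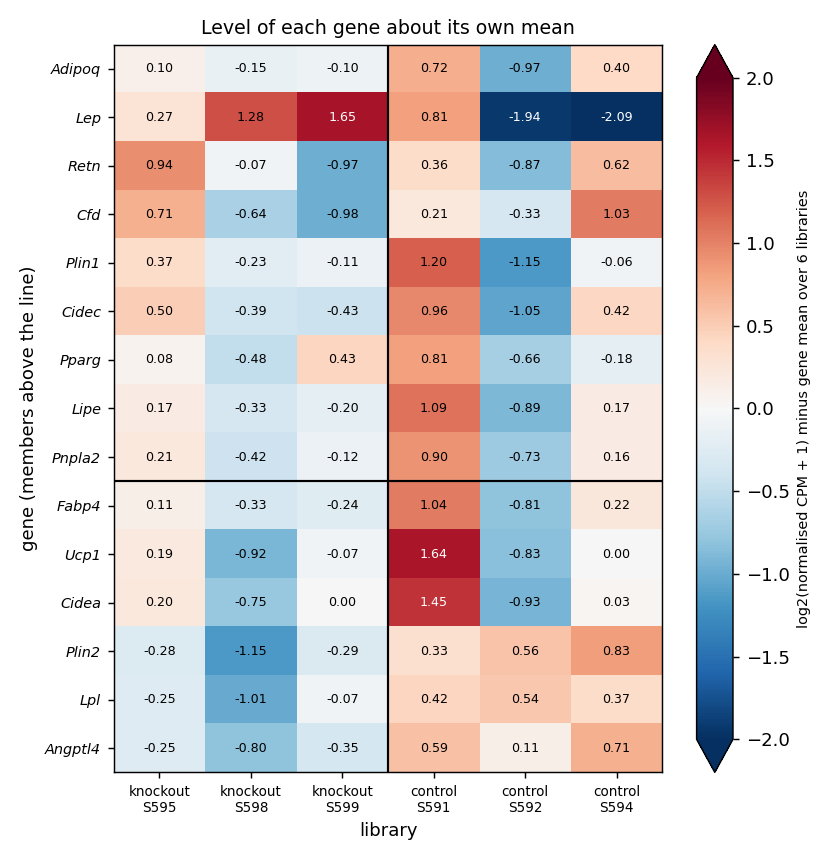
Log2(normalised CPM + 1) of each gene minus its mean over the 6 libraries (colour and printed number), with knockout libraries left of the vertical line and controls right of it; the 9 members are above the horizontal line and 6 related genes below it. Adipoq, Plin1, Cidec, Lipe, Pnpla2, Fabp4, Ucp1 and Cidea are highest in control S591 and lowest in control S592 or knockout S598, Lep departs in S592 and S594, and Plin2, Lpl and Angptl4 are below their means in all knockout libraries.

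Because the summed level of the members differed between libraries, each member was also expressed per 100 of Adipoq in the same library. Lep stood at 8.90 for knockout S595, 22.5 for S598 and 28.4 for S599 per 100 of Adipoq, against 8.65 for control S591, 2.41 for S592 and 0.748 for S594. All knockout values were above all control values, though S595 exceeded S591 by little. The undivided levels overlapped (8.90 CPM in S595, 13.4 CPM in S591). How many of all genes separate after division by Adipoq was not computed, while 25.5% of them did so undivided. The difference of mean log2 ratios was 2.84 (within-group SD 0.89 in knockouts and 1.77 in controls, exact two-sided permutation p = 0.1, the smallest that 3 against 3 libraries allow). Leaving out 1 library at a time gave 1.97 to 3.73. Per 100 of Plin1 plus Cidec the difference was 2.84 as well, again with no overlap but little between S595 (4.92) and S591 (4.72). The ratio for Lep spanned 38.0-fold over the 6 libraries, whereas those for Lipe and Pnpla2 spanned 1.53-fold and 1.43-fold.

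Relative to Adipoq, Retn differed by 0.01 on the log2 scale between groups (exact two-sided permutation p = 1) and Cfd by −0.51 (exact two-sided permutation p = 0.4). Cfd was at 260 per 100 of Adipoq for knockout S595, 120.1 for S598 and 91.7 for S599, against 119 for control S591, 266 for S592 and 262 for S594. Each group thus held libraries with high and with low Cfd for their Adipoq. Plin1, Cidec, Pparg, Lipe and Pnpla2 had differences between −0.14 and 0.12.

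**Figure D3:**
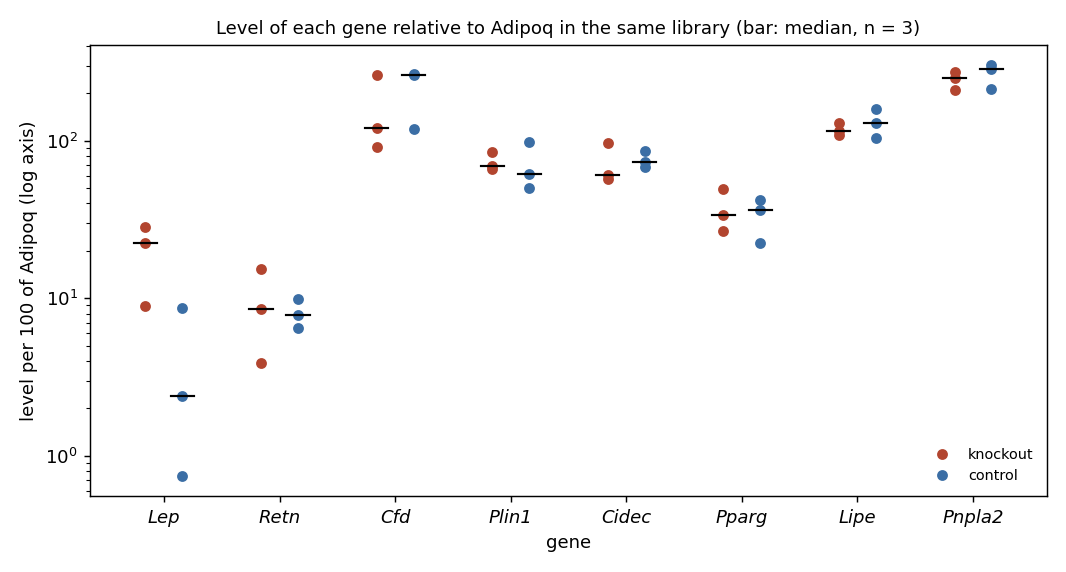
Level of each other member per 100 of Adipoq in the same library (vertical log axis), with the 3 knockout libraries in red left of the 3 control libraries in blue and a bar at each median. The Lep points run from 8.90 to 28.4 in knockouts and from 0.748 to 8.65 in controls, while the points of every other gene overlap between groups.

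Genes around the members were read from 5 lists of adipocyte biology, with 76 of 78 genes measured. By limma with Benjamini-Hochberg adjustment 0 of the 76 passed, as by edgeR, whereas other settings made calls. DESeq2 called 4 higher and 6 lower, where it called 6.51% of all genes with an adjusted p. With array weights limma called 3 higher and 6 lower, against 7.07% of all genes, and without control S591 it called 3 higher and 1 lower, against 4.69% of all genes. At an unadjusted p under 0.05 there were 7 higher and 12 lower in the knockout arches, where 8.04% and 12.0% of all genes were. Groups did not overlap for 6 genes on the higher and 12 on the lower side, against 11.3% and 14.2% of all genes. The median log2 fold change was −0.18.

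Other adipokines and adipokine receptors (15 measured) had 2 genes higher and 3 lower at an unadjusted p under 0.05, with a median of 0.04. Angptl4, an inhibitor of lipoprotein lipase, was at 50.3, 34.0 and 46.9 in the knockout libraries S595, S598 and S599, against 90.7, 65.0 and 98.7 in the controls S591, S592 and S594, with no overlap (log2 fold change −0.94, adjusted p = 0.107 by limma). Lcn2, lipocalin 2, a secreted iron-carrier binding protein of fat and myeloid cells, had a log2 fold change of −1.77 (adjusted p = 0.132) and overlapping groups. Rbp4, the retinol carrier, had a change of 0.53 (adjusted p = 0.211). The leptin receptor gene Lepr was at 17.6, 29.8 and 14.7 in the same knockout libraries, against 17.5, 10.7 and 8.61 in the controls (adjusted p = 0.268). The adiponectin receptor gene Adipor2 was highest in S591 at 256 and lowest in S592 at 111, as Adipoq was (log2 fold change −0.18).

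Of 10 other lipid droplet genes measured, 6 were highest in control S591, as 6 members were. Plin2, the perilipin of droplets in most cells, foam cells included, was at 275, 149 and 273 in knockout S595, S598 and S599, against 419, 493 and 593 in control S591, S592 and S594, with no overlap (log2 fold change −1.15, standard error 0.25, adjusted p = 0.111 by limma). The caveolar genes Cav1 (0.76, adjusted p = 0.121) and Cavin1 (0.50, adjusted p = 0.168) lay on the higher side, again with no overlap. The list had 2 genes higher and 1 lower at an unadjusted p under 0.05 and a median of −0.30.

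Of 12 transcription factors, Klf15, a factor that glucocorticoids induce, was at 33.2, 30.7 and 27.4 in knockout S595, S598 and S599, against 15.9, 17.0 and 19.1 in control S591, S592 and S594, with no overlap (log2 fold change 0.78, standard error 0.13, adjusted p = 0.107 by limma). The adipogenic C/EBP genes lay on the other side: Cebpa at −0.52 (adjusted p = 0.144) and Cebpb at −0.67 (adjusted p = 0.121), both with the knockouts below all controls. Adipocyte and myeloid cells both express C/EBP factors. At an unadjusted p under 0.05 the list had 2 genes higher and 3 lower, with a median of −0.13.

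Among 17 other lipolysis genes the natriuretic peptide receptor gene Npr1 had a log2 fold change of 0.54 (adjusted p = 0.131 by limma) and the ATGL coactivator gene Abhd5 of −0.48 (adjusted p = 0.156). Adrb3, the beta-3 receptor of fat cells, was at 37.2, 19.3 and 17.5 in knockout S595, S598 and S599, against 51.8, 15.2 and 30.8 in control S591, S592 and S594, in the order of Adipoq among the controls. The ATGL inhibitor gene G0s2 was at 0.51 (adjusted p = 0.643) and the monoglyceride lipase gene Mgll at 0.08 (adjusted p = 0.897) on the log2 fold change scale. Fabp4 was at 704, 518 and 552 in the same knockout libraries, against 1338, 372 and 759 in the controls (log2 fold change −0.30, adjusted p = 0.728). Of the 17, 12 were highest in S591 and 10 lowest in S592, and 1 was higher and 3 lower at an unadjusted p under 0.05 (median −0.16).

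Fatty acid uptake and triglyceride synthesis genes (22 measured, 0 higher and 2 lower at an unadjusted p under 0.05, median −0.33) were highest in control S591 in 19 cases. Lpl, the lipase that frees fatty acids from plasma lipoproteins, was an exception: it was at 795, 471 and 904 in knockout S595, S598 and S599, against 1272, 1375 and 1230 in control S591, S592 and S594, with no overlap (log2 fold change −0.89, standard error 0.24, adjusted p = 0.129 by limma). The fatty acid transporter gene Slc27a1 also had groups apart (−0.62, adjusted p = 0.107), and the scavenger receptor gene Cd36 had overlapping groups (−0.45, adjusted p = 0.304). Macrophages express Plin2, Lpl and Cd36 as well. All 10 macrophage markers examined had negative log2 fold changes (median −1.19, 0 past limma's adjusted threshold and 10 lower at an unadjusted p under 0.05), their summed level was between 2086 and 5126 in knockout and between 4978 and 8450 in control libraries, and their part in the values of Plin2, Lpl, Angptl4 and the C/EBP genes was not tested.

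Brown fat transcripts were present in every library. Ucp1, the uncoupling protein that makes heat, was at 298, 138 and 249 in knockout S595, S598 and S599, against 815, 146 and 260 in control S591, S592 and S594. Cidea was at 108, 55.0 and 93.5 against 256, 48.5 and 95.4 in the same libraries, and Dio2, the deiodinase that activates thyroid hormone, at 127, 98.9 and 79.2 against 121, 124 and 139. Ucp1 and Cidea, like 6 of the members, were highest in S591, and Dio2 was not. Of the 10 measured brown fat markers 0 passed limma's adjusted test and 1 was higher and 1 lower at an unadjusted p under 0.05, and the median log2 fold change was −0.33. The list's summed level was between 525 and 817 in knockout and between 473 and 1686 in control libraries. Fibroblast and adipocyte progenitor markers (7 measured) had a median of −0.33, with 0 past limma's adjusted threshold and 2 lower at an unadjusted p under 0.05.

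**Figure D4:**
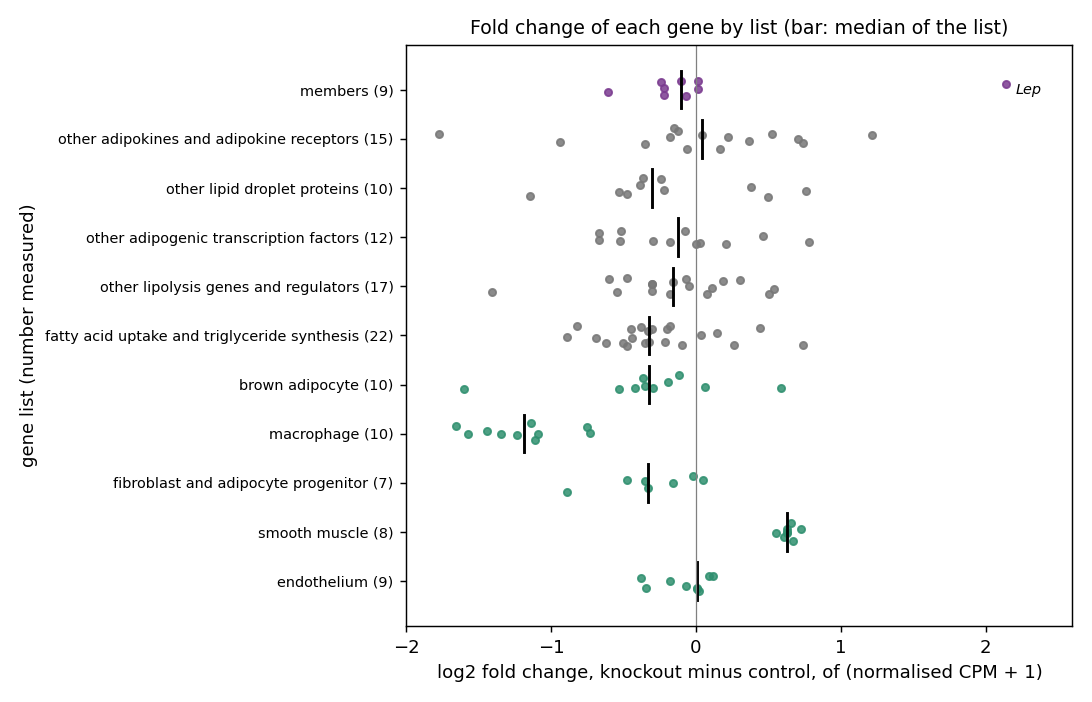
Log2 fold change, knockout minus control, of (normalised CPM + 1) for each gene (points) in the members, the 5 lists of adipocyte biology and 5 marker lists, with a bar at the median of each list and the number measured in brackets; vertical scatter only separates points. The members cluster about −0.10 with Lep alone at 2.14, macrophage markers all lie below 0 and smooth muscle markers all lie above 0.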

How the data were processed

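Libraries were prepared with a TruSeq kit from polyA RNA, per the labels' protocols. CASAVA 1.8, cutadapt 1.6.1, RSEM 1.16, Bowtie 0.12.7, limma, edgeR and build NCBIM37 are listed, without roles, in the submitters' processing notes; the annotation and any use of strand were not given in the sources used here. What the authors deposited is a scaled signal for each gene in each library. Each equalled (reads + 0.5) as CPM of a TMM-scaled library size, the form voom uses, and whole reads came out of 100% of values (tolerance 0.01). One read was worth 0.0964 to 0.178 CPM. Depth over genes outside the table was not analysed here.

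A column's name gives its group and a library number that no sample label holds, so libraries carry no replicate number. Symbols were looked up by Ensembl identifier for 13828 of 14298 genes. Groups were compared with limma 3.58.1 (R 4.3.3) on log2(value + 1) with a variance trend, genotype as the only term, two-sided, Benjamini-Hochberg over all genes, threshold 0.05. The filter of at least 1 CPM in 3 libraries removed no gene. P-values measure only the spread between these libraries. Counting intervals cover counting error only. Alternatives included edgeR 4.0.16 and DESeq2 1.42.0 on the recovered reads.

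Members and lists were chosen with earlier results of these data known. Genes named were the members, the 3 of smallest p in each adipocyte list with Fabp4, Lpl, Cebpa, Adipor2, Lepr, Abhd5, G0s2, Mgll, Plin2 and Adrb3, 3 brown fat genes, and the 5 closest to Adipoq. One gene that this rule names is not reported here.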

Additional observations from a re-analysis of the deposited data

How the results depend on the processing

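No paired analysis was possible because the columns carry no replicate number of the labels, so the planned replicate block was not run. Against 0 members past the threshold from all libraries, 1 (Lep) passed with array weights (log2 fold change 2.67) and, with 1 library left out, the count ran from 0 to 1 and the change of Lep from 1.63 to 3.08. Of all genes, 3 were called from all libraries, 0 with a pseudocount of 0.5 or 0.1, with a mean of at least 5 CPM, by limma-voom, by edgeR or without S598 and S599, 1 without a variance trend, 1011 with array weights, 894 by DESeq2, and 0 (without S598, S599 or S592) to 671 (without S591) with 1 library left out. At an unadjusted p under 0.05 limma-voom called 2988, edgeR 2899 and limma without S598 and S599 1347. Small changes turned sign. With array weights Adipoq was 0.24, Retn 0.18, Cidec 0.11, Lipe 0.091 and Pnpla2 0.016. By edgeR and DESeq2 Retn was 0.0025 and 0.017, Plin1 −0.27 and −0.25, and Pparg −0.069 and −0.056. Without S598 and S599 Adipoq was 0.043, Retn 0.90, Cfd 0.40, Cidec 0.39, Lipe 0.048 and Pnpla2 0.10, while Lep was 1.34 and Plin1 0.38. That fit assumes that the lone S595 varies like the controls. With 1 library left out the changes ran from −0.62 to 0.23 for Adipoq, −0.56 to 0.40 for Retn, −0.56 to 0.62 for Plin1, −0.80 to 0.20 for Cidec, −0.31 to 0.43 for Pparg, −0.75 to 0.24 for Lipe and −0.64 to 0.17 for Pnpla2, lowest without S592 and highest without S591 in these 7 but for Retn (without S595 and without S599). Cfd ran from −1.12 (without S595) to −0.25 (without S594). The cause was not tested. Members whose groups do not overlap numbered 0 to 2 with 1 library left out (Lep and Cfd without S595, where 42.1% of all genes did not overlap, Lep without S591, where 43.4% did not, and Adipoq without S592, where 34.9% did not) and 1 (Retn) without S598 and S599, where 57.4% did not, against 0 from all libraries. The median over members ran from −0.62 (without S592) to 0.38 (without S598 and S599). Precision is limited most for Lep, with 7 and 8 reads in the lowest libraries.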

Other observations

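The genes whose pattern over the 6 libraries was closest to that of Lep, a search chosen after its values were seen, were not fat genes of the lists. Ifi202b, an interferon-inducible gene whose expression is known to differ between inbred mouse strains, was at 12.4, 15.4 and 11.2 in knockout S595, S598 and S599, against 17.7, 0.872 and 0.0619 in control S591, S592 and S594. Its value in S594 lay below the worth of 1 read there, 0.124 CPM, and so at the floor. Whether the libraries differ in strain background was not tested. The potassium channel gene Kcnj10 was at 5.55, 6.12 and 12.5 in the same knockout libraries, against 5.60, 1.14 and 1.30 in the controls. Both set S592 and S594 apart from the other 4 libraries, as Lep did. Their root mean square distances to Lep were 0.56 and 0.61 log2 units, and neither passed the test (adjusted p = 0.273 and 0.167 by limma). The next were Sparcl1, a matricellular protein gene, at 653, 2397 and 1776 against 643, 357 and 185, the enkephalin precursor gene Penk, at 8.14, 15.5 and 16.0 against 10.04, 3.29 and 3.28, and the clock output factor gene Hlf, at 37.5, 35.4 and 43.0 against 20.0, 5.43 and 9.97. Groups did not overlap for Sparcl1 and Hlf (adjusted p = 0.132 and 0.107).

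Mesothelial transcripts, which line the outer face of fat and organs, stood high in 1 library of each group. Their 3 measured markers summed to 4.34 for knockout S595, 139 for S598 and 2.75 for S599, against 60.7 for control S591, 6.37 for S592 and 6.13 for S594. Their part in the values of Lep was not tested.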
